A study of Rattus norvegicus with 11 samples.

Results

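Glucocorticoid-induced genes were followed in rat lung through 10 gene symbols: the receptor gene Nr3c1, the steroid-activating enzyme gene Hsd11b1, and 8 genes that corticosteroids are known to induce, namely Fkbp5, Tsc22d3, Klf9, Zbtb16, Mt2A, Sgk1, Errfi1 and Cebpd. Every probe set whose annotation symbol was exactly one of these names was taken, whatever its values. This gave 15 probe sets of the 31042 tested, for 9 of the 10 genes; Zbtb16 was not analysed here. The 9 genes stand among 14217 genes with a probe set of their own. Where a gene had several probe sets, the one of highest mean over all arrays represented it, and the others are described beside it.

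Glucocorticoids reach cells as circulating corticosterone in the rat, and the enzyme encoded by Hsd11b1 regenerates active hormone from its inert form inside the cell. The hormone binds the glucocorticoid receptor, which Hsp90 and its co-chaperones hold ready in the cytoplasm. The receptor then enters the nucleus, binds response elements and switches on targets, some of which limit the response. In lung these hormones are known for maturing the epithelium, restraining inflammation and raising sodium and water transport.

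The lungs came from Dahl salt-sensitive rats of 250 to 350 g, all of this strain. One group breathed room air (normoxia, given vehicle per the series text, n = 4 arrays). A second group was kept in hypoxia at an inspired oxygen fraction of about 9.5% (also given vehicle, n = 4), and the remaining group received SU5416, which blocks receptors of vascular endothelial growth factor, in the same hypoxia (n = 3). RNA of whole lung, its vessels perfused, was taken at 3.5 weeks and hybridised to Affymetrix rat arrays. No group had SU5416 in room air, and the sorafenib group of the series was not analysed here. Neither corticosterone levels nor the hour at which lungs were taken are given in the sources used here. The labels do not say that each array is a separate animal, so each p-value takes the arrays to be independent. In whole lung, fewer cells of a type and less RNA per cell cannot be told apart.

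Values are log2 signals, so that a difference of 1 is a doubling. The medians of the 11 arrays lay between 7.8 and 8.01, and the number of arrays limits the precision. All 9 genes lay above 5.72, the 95th percentile of 27 probe sets for bacterial control transcripts. The defining lung markers were high: 11 of 12 listed epithelial and endothelial markers were measured, all above that level, with array means of 12.31 to 12.81. Integrity of RNA differed within normoxia. For beta-actin the 3′ signal stood above the 5′ signal by 2.24 on normoxia array 1 and by 1.33 on array 2, against 0.51 and 0.60 on arrays 3 and 4, 0.68 to 0.87 in hypoxia and 0.56 to 0.67 in hypoxia with SU5416. A wide gap is a usual sign of degraded RNA. For the 9 genes, and for the gene lists counted against normoxia, values without these arrays are given as well.

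Stretches of 250 bases upstream of the RefSeq transcription start (build GRCr8) are shown for 4 genes, because these stand for the different patterns found in the arrays. Klf9 (chr1:230126396-230126645, plus strand) and Fkbp5 (chr20:6543556-6543805, minus strand) varied most within normoxia. Errfi1 (chr5:166606591-166606840, plus strand) had the largest difference of the 9 genes between the averaged hypoxic groups and normoxia by the brightest probe sets, and Mt2A (chr19:10838709-10838958, minus strand) was highest with SU5416. Each is written 5′ to 3′ in the direction of the gene and ends at the base before the start. Capitals mark 4 common promoter motifs found by exact match on either strand. TATAAA is the TATA box and CCAAT the box named after its letters. GGGCGG is a GC box, and CACGTG an E-box.
Klf9: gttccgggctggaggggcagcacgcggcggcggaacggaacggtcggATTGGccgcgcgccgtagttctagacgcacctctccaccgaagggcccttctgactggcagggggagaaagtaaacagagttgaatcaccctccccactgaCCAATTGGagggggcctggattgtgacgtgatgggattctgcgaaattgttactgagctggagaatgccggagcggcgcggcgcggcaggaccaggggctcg
Fkbp5: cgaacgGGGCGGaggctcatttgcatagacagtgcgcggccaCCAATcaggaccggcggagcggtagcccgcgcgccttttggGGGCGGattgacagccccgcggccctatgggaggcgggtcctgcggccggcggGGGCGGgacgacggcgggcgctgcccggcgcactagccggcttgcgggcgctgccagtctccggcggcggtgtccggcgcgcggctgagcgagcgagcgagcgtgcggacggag
Errfi1: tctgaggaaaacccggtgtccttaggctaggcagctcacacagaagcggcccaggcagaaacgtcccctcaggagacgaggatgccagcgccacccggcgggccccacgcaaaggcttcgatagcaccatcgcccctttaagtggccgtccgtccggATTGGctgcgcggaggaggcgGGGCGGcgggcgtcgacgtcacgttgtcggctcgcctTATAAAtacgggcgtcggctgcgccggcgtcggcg
Mt2A: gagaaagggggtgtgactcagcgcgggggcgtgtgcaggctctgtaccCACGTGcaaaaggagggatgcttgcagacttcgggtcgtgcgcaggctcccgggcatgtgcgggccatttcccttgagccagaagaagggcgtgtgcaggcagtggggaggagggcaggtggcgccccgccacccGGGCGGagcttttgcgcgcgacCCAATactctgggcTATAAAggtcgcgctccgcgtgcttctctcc
In the Klf9 window a pair of CCAAT matches on opposite strands overlap. A TATAAA stood 35 bases before the start of Errfi1 and 31 before that of Mt2A, and no TATAAA stood in the windows of Klf9 or Fkbp5. Of all 33469 windows of this length in the table, 12.9% held TATAAA, 34% CCAAT, 30.5% GGGCGG and 5.59% CACGTG. The window of Mt2A also held 5 matches, on either strand, to TGCNCNC, and 43.4% of all windows held at least 1. This pattern is looser than TGCRCNC (R being A or G), the core of the metal response element. Through that element zinc and cadmium switch on metallothioneins. The match GAGGGCA reads TGCCCTC on the other strand, with C in place of R, so it is not a match to the core. The share of all windows with TGCRCNC was not counted. The TGCNCNC matches are not marked by capitals.

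The receptor's own response element was searched in 12 windows that the table held for 7 of the genes (Nr3c1, Fkbp5, Tsc22d3, Klf9, Mt2A, Sgk1 and Errfi1). The full element, read as AGAACA, any 3 bases and TGTTCT on either strand, was in 4 of the 33469 windows, or 0.012%, and in no member window. Its right arm alone, TGTTCT on either strand, was in 17.5% of all windows and in no member window. These letters are thus not in these 250 bases; as background, receptor binding sites often lie far from the start, within introns in the case of Fkbp5.

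None of the 9 genes passed an adjusted p of 0.05 in any of the 4 comparisons made over all 11 arrays (limma, Benjamini-Hochberg over 31042 probe sets). In hypoxia against normoxia 0 of 9 were called, beside 0.0% of all genes. In hypoxia with SU5416 against normoxia 0 of 9 were called, beside 0.0844%, and against hypoxia alone 0 of 9, beside 0.0352%. With both hypoxic groups averaged and set against normoxia, 0 of 9 were called, beside 0.00703%. Few genes of any kind passed, so these counts say little about the 9.

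At an unadjusted p under 0.05 the comparison of hypoxia with normoxia had 3 members higher and 0 lower, where 4.30% of all genes were higher and 5.29% lower. Hypoxia with SU5416 against normoxia had 4 higher and 0 lower, where 6.02% of all genes were higher and 6.70% lower. The averaged hypoxic groups against normoxia had 4 higher and 0 lower, beside 6.22% and 6.98%, and hypoxia with SU5416 against hypoxia had 0 in either direction, beside 3.67% higher and 3.63% lower. The median difference of the 9 genes was 0.39 in hypoxia, 0.25 in hypoxia with SU5416 and 0.39 in the averaged hypoxic groups, each against normoxia, while the median over all genes was between -0.02 and 0. These comparisons share their normoxia arrays.

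**Figure D1:**
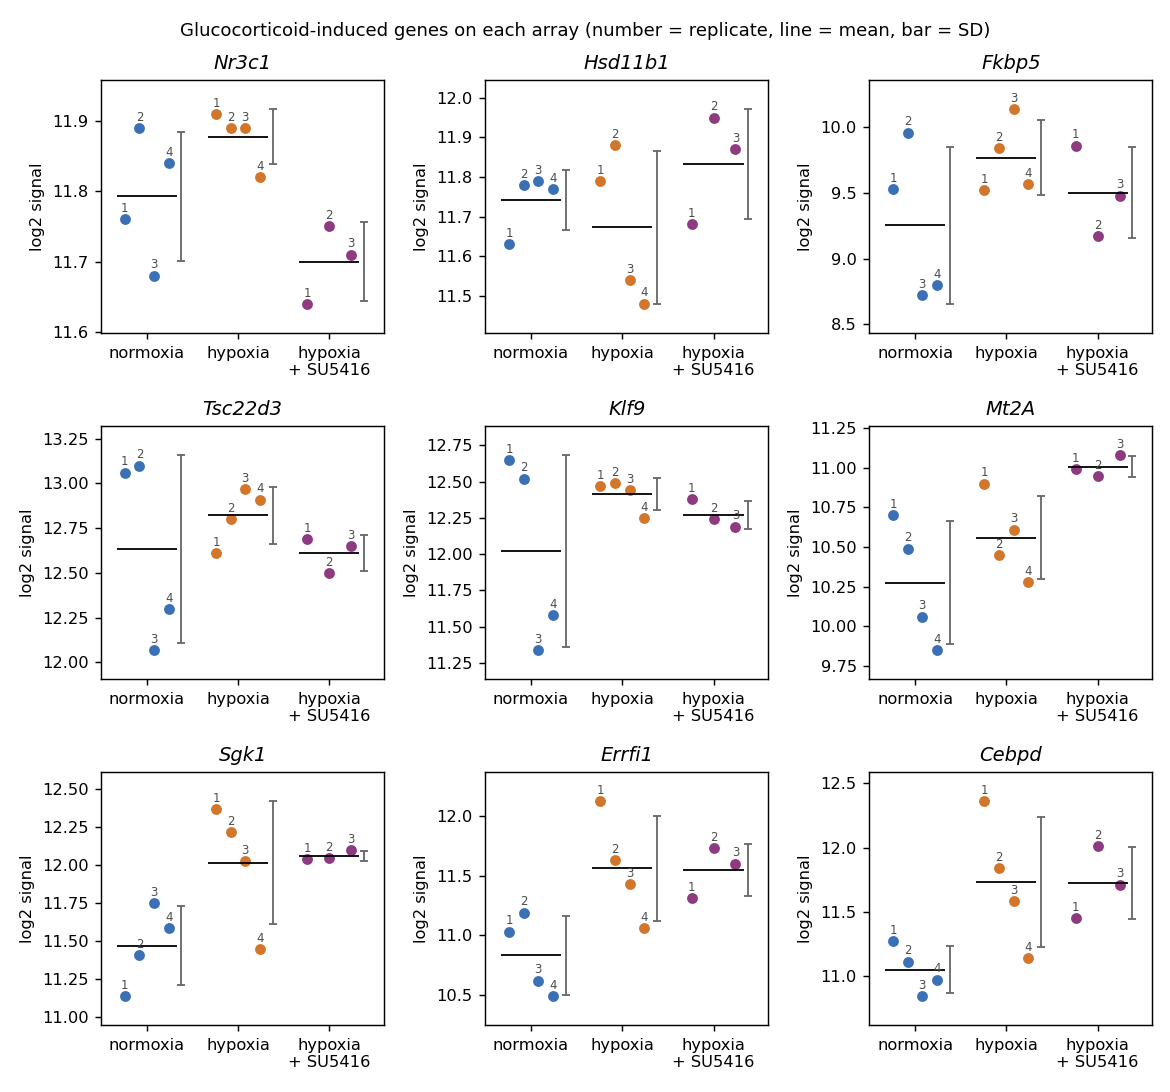
Each panel plots the log2 signal of 1 gene (vertical axis) on every array of the 3 groups (horizontal axis), with the replicate number above each point, a line at the group mean and a bar of 1 SD beside it; panels have their own ranges. Nr3c1 spans 11.64 to 11.91 in all, whereas Klf9 in normoxia falls into arrays 1 and 2 at 12.65 and 12.52 and arrays 3 and 4 at 11.34 and 11.58.

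Nr3c1, the receptor itself, was nearly level across the groups (probe set 1368221_at). Its signals were 11.76, 11.89, 11.68 and 11.84 on normoxia arrays 1 to 4, 11.91, 11.89, 11.89 and 11.82 in hypoxia, and 11.64, 11.75 and 11.71 in hypoxia with SU5416. All 3 SU5416 arrays lay below all 4 hypoxia arrays, and neither group was apart from normoxia. The difference of SU5416 from hypoxia was -0.18 (SE 0.09, 95% interval -0.38 to 0.03, adjusted p = 0.732), and 6.53% of all genes had SU5416 arrays wholly below the hypoxia arrays. Against normoxia the averaged hypoxic groups differed by less than 0.01 in size, with an interval from -0.17 to 0.16.

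The second probe set of Nr3c1, 1368222_at, was dimmer and did not follow the first. It read 6.07, 7.43, 8.39 and 7.97 in normoxia, 7.67, 6.77, 7.33 and 7.20 in hypoxia, and 7.60, 8.04 and 7.90 with SU5416. Its lowest array was normoxia array 1, the array with the widest beta-actin gap. The SU5416 group was 0.60 above hypoxia by this probe set (SE 0.47, adjusted p = 0.84), the opposite sign to the brighter one.

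Hsd11b1, whose product regenerates corticosterone, was level as well (1386953_at). It read 11.63, 11.78, 11.79 and 11.77 in normoxia, 11.79, 11.88, 11.54 and 11.48 in hypoxia, and 11.68, 11.95 and 11.87 with SU5416. The 3 groups overlapped, with means of 11.74 ± 0.08, 11.67 ± 0.19 and 11.83 ± 0.14 (SD). No pair of groups differed by more than 0.16 (SE 0.13, adjusted p = 0.843), and the widest interval bound was 0.44.

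The chaperone and cofactor genes around the receptor were likewise near level. Of 22 listed genes 18 were measured: Hsp90 subunits, co-chaperones, coactivators, corepressors, the mineralocorticoid receptor and steroid-handling genes. In the averaged hypoxic groups 7 of the 18 were higher than in normoxia, beside 48.0% of all genes, with a median of -0.03 and 0 called (limma). At an unadjusted p under 0.05 there were 0 higher and 1 lower, beside 6.22% and 6.98% of all genes. The median was also -0.03 without normoxia arrays 1 and 2, and -0.02 without arrays 3 and 4. That 1 was Serpina6, corticosteroid-binding globulin, whose signal lay below background in every group. The next smallest p belonged to Ppid, an Hsp90-binding cyclophilin (-0.20, adjusted p = 0.41), Stip1, which links Hsp70 to Hsp90 (0.18, adjusted p = 0.512), and Bag1, a co-chaperone of Hsp70 (0.20, adjusted p = 0.519).

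Fkbp5 encodes FKBP51, the co-chaperone that lowers the receptor's affinity for hormone and is among its most used target genes. Its brighter probe set, 1388901_at, read 9.53, 9.96, 8.72 and 8.80 on normoxia arrays 1 to 4. The hypoxia arrays read 9.52, 9.84, 10.14 and 9.57, and the SU5416 arrays 9.86, 9.17 and 9.48. Normoxia arrays 3 and 4 were the lowest of all 11, and arrays 1 and 2 lay among the hypoxic ones. Hypoxia was 0.52 above normoxia (SE 0.29, interval -0.12 to 1.16, adjusted p = 0.541) and hypoxia with SU5416 0.25 above (SE 0.31, adjusted p = 0.783). The dimmer probe set, 1380611_at, gave 0.48 and 0.55 (adjusted p = 0.572 and 0.507), but in normoxia its arrays 1 and 2 averaged 0.47 below arrays 3 and 4 (difference -0.47), where the brighter set had them 0.98 above.

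Tsc22d3 encodes GILZ, a leucine zipper protein that binds and restrains NF-kappa B and AP-1. Probe set 1367771_at read 13.06, 13.10, 12.07 and 12.30 in normoxia, 12.61, 12.80, 12.97 and 12.91 in hypoxia, and 12.69, 12.50 and 12.65 with SU5416. Both hypoxic groups lay between the high and the low pair of normoxia arrays. The differences from normoxia were 0.19 (SE 0.23, adjusted p = 0.798) and -0.02 (SE 0.25, adjusted p = 0.984).

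Klf9, a Kruppel-like transcription factor, had the widest normoxia spread of the 9 genes. Probe set 1370209_at read 12.65, 12.52, 11.34 and 11.58 in normoxia, 12.47, 12.49, 12.44 and 12.25 in hypoxia, and 12.38, 12.24 and 12.19 with SU5416. The 7 hypoxic arrays spanned 12.19 to 12.49 and the 4 normoxia arrays 11.34 to 12.65. The differences were 0.39 in hypoxia (SE 0.27, adjusted p = 0.629) and 0.25 with SU5416 (SE 0.29, adjusted p = 0.775).

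The other probe sets of Klf9 disagreed with each other. By 1387882_at, which read 6.46, 7.70, 8.49 and 8.38 in normoxia, hypoxia was 0.87 higher (adjusted p = 0.469) and hypoxia with SU5416 1.37 higher (SE 0.44, adjusted p = 0.267). By 1390076_at hypoxia was lower by 0.43 (difference -0.43, SE 0.12, adjusted p = 0.305), and its hypoxia arrays, at 6.59 to 6.82, all lay below the normoxia arrays, at 6.99 to 7.36. The direction of Klf9 against normoxia therefore depends on the probe set.

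Mt2A, a metallothionein that binds zinc and copper and is induced by metals as well as by glucocorticoids, was highest with SU5416. Probe set 1388271_at read 10.70, 10.49, 10.06 and 9.85 in normoxia, 10.90, 10.45, 10.61 and 10.28 in hypoxia, and 10.99, 10.95 and 11.08 in hypoxia with SU5416. The 3 SU5416 arrays lay above the 8 others. They averaged 0.73 above normoxia, or 1.66-fold (SE 0.21, interval 0.26 to 1.21, adjusted p = 0.22), and 0.45 above hypoxia (SE 0.21, interval -0.03 to 0.92, adjusted p = 0.703). Hypoxia alone was 0.29 above normoxia with overlapping arrays (SE 0.20, adjusted p = 0.627). Mt2A was the 1 member whose SU5416 arrays were all above hypoxia, as 6.07% of all genes were. Of 8 macrophage markers 6 were measured. With SU5416, 5 of the 6 were above normoxia, beside 47.4% of all genes (median 0.66, 0.38 without normoxia arrays 1 and 2, and 0.93 without arrays 3 and 4). The complement genes C1qb and C1qa were above by 1.75 and 1.37 (limma, adjusted p = 0.113 and 0.0555), whereas Lyz2, lysozyme, was at -0.25. Without normoxia arrays 3 and 4 both complement genes were called, 2 of 6 beside 0.197% of all genes, and without arrays 1 and 2, 0 of 6. C1qb was also called in the averaged hypoxic groups without arrays 3 and 4, beside 0.0703% of all genes. Against hypoxia with SU5416 it was called without arrays 1 and 2, beside 0.0703%. The mean of the 6 markers over an array was 11.10 to 11.52 with SU5416, against 10.68 to 10.79 in hypoxia and 10.24 to 10.95 in normoxia. Their part in the Mt2A difference was not tested.

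Sgk1, Errfi1 and Cebpd shared a pattern: a mean 1.46 to 1.66 times that of normoxia in each hypoxic group, and next to no difference between those groups. None passed the adjusted threshold. Sgk1 is a serum- and glucocorticoid-induced kinase that keeps the epithelial sodium channel at the cell surface. It read 11.14, 11.41, 11.75 and 11.59 in normoxia (1367802_at), 12.37, 12.22, 12.03 and 11.45 in hypoxia, and 12.04, 12.05 and 12.10 with SU5416. The SU5416 arrays were all above normoxia, whereas hypoxia array 4 lay within the normoxia range. The differences were 0.55 (SE 0.20, interval 0.10 to 0.99, adjusted p = 0.383) and 0.59 (SE 0.22, interval 0.11 to 1.07, adjusted p = 0.318).

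Errfi1 encodes MIG6, an inhibitor of the epidermal growth factor receptor kinase. Its probe set 1373093_at read 11.03, 11.19, 10.62 and 10.49 in normoxia, 12.12, 11.63, 11.43 and 11.06 in hypoxia, and 11.31, 11.73 and 11.60 with SU5416. Hypoxia array 4 again overlapped normoxia, and the SU5416 arrays did not. Hypoxia was 0.73 above normoxia, or 1.66-fold (SE 0.24, interval 0.20 to 1.25, adjusted p = 0.348), and hypoxia with SU5416 0.71 above, or 1.64-fold (SE 0.26, interval 0.15 to 1.28, adjusted p = 0.31).

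Cebpd, a basic leucine zipper transcription factor of the acute phase response, read 11.27, 11.11, 10.84 and 10.97 in normoxia by its brightest probe set (1387343_at). Hypoxia arrays read 12.36, 11.84, 11.58 and 11.14, and SU5416 arrays 11.45, 12.01 and 11.71. The difference was 0.68 for either group (SE 0.24 and 0.26, adjusted p = 0.372 and 0.338). A second probe set, 1368813_at, read 10.04, 9.88, 9.89 and 9.83 in normoxia, 11.41, 10.72, 10.36 and 10.29 in hypoxia, and 10.56, 11.21 and 10.88 with SU5416. All 7 hypoxic arrays lay above normoxia by it, and the hypoxic groups overlapped each other; by the brightest probe sets, 1.15% of all genes had all 7 above. By it hypoxia was 0.78 higher (SE 0.24, adjusted p = 0.329) and hypoxia with SU5416 0.97 higher, or 1.96-fold (SE 0.26, adjusted p = 0.185). The dimmest set, 1389828_at, gave 0.28 and 0.29.

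Between hypoxia with and without SU5416 these 3 genes differed by 0.05 (Sgk1, interval -0.44 to 0.53), -0.01 (Errfi1, -0.58 to 0.56) and -0.01 (Cebpd, -0.58 to 0.57). The intervals leave room for differences of up to about 1.5-fold in either direction. Sgk1, Errfi1, Cebpd and Mt2A were the 4 of 9 genes whose SU5416 arrays all lay above normoxia, where 6.59% of all genes did so. In hypoxia alone 0 of 9 did, beside 2.93%, and for all 7 hypoxic arrays against normoxia 0 of 9, beside the 1.15% given above. The averaged hypoxic groups against normoxia gave 0.57 for Sgk1 (adjusted p = 0.239), 0.72 for Errfi1 (0.218), 0.68 for Cebpd (0.239) and 0.51 for Mt2A (0.271).

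**Figure D2:**
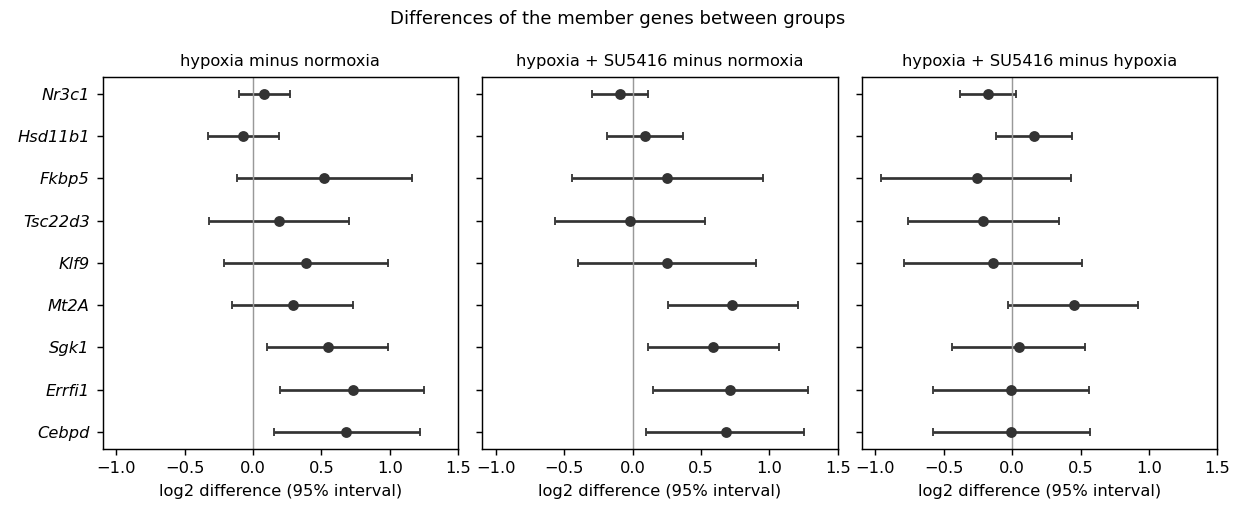
Points give the fitted log2 difference of each gene (rows) between 2 groups in 3 panels, with bars for the 95% interval and a vertical line at 0. Intervals of Sgk1, Errfi1 and Cebpd lie above 0 in both comparisons with normoxia, that of Mt2A does so with SU5416 (0.26 to 1.21), and all 9 intervals cross 0 between the hypoxic groups; no gene passed the adjusted threshold.

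The normoxia arrays themselves split into 2 pairs for most of these genes. On arrays 1 and 2 of normoxia, which have the wide beta-actin gaps, 6 of the 9 genes read higher than on both arrays 3 and 4, and 1, Sgk1, read lower. Over all genes 24.7% were higher and 24.6% lower on that pair. The mean gap between the pairs was 1.12 for Klf9, 0.98 for Fkbp5, 0.89 for Tsc22d3, 0.64 for Mt2A, 0.55 for Errfi1 and 0.28 for Cebpd, 0.06 for Nr3c1, -0.07 for Hsd11b1 and -0.39 for Sgk1. A gap of at least 1 with arrays 1 and 2 higher was found for 2.27% of all genes. Gaps of that size in the other direction were not counted. For Klf9, Fkbp5 and Tsc22d3 the range of single normoxia arrays (1.31, 1.24 and 1.03) was wider than any difference between group means. This held by less for Mt2A (0.85 against 0.73), Sgk1 (0.61 against 0.59) and Nr3c1 (0.21 against -0.18).

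Several circadian genes, named here after their values were seen, had the same split with a larger size. Per1, a clock repressor that glucocorticoids also induce directly, read 10.46 and 10.60 on normoxia arrays 1 and 2 and 8.49 and 8.86 on arrays 3 and 4, against 9.66 to 10.71 on the 7 hypoxic arrays. Nr1d1, the clock repressor REV-ERB alpha, read 11.64 and 11.41 against 7.57 and 7.66, with hypoxic arrays at 9.47 to 11.15. Of 13 measured clock genes 8 were higher on arrays 1 and 2 and 3 lower. All 11 lung markers were higher on arrays 1 and 2 as well (median gap 0.44), and of 15 T and NK cell markers 10 were lower (median gap -0.41). The part of RNA integrity, of clock phase and of cell makeup in the split was not tested.

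**Figure D3:**
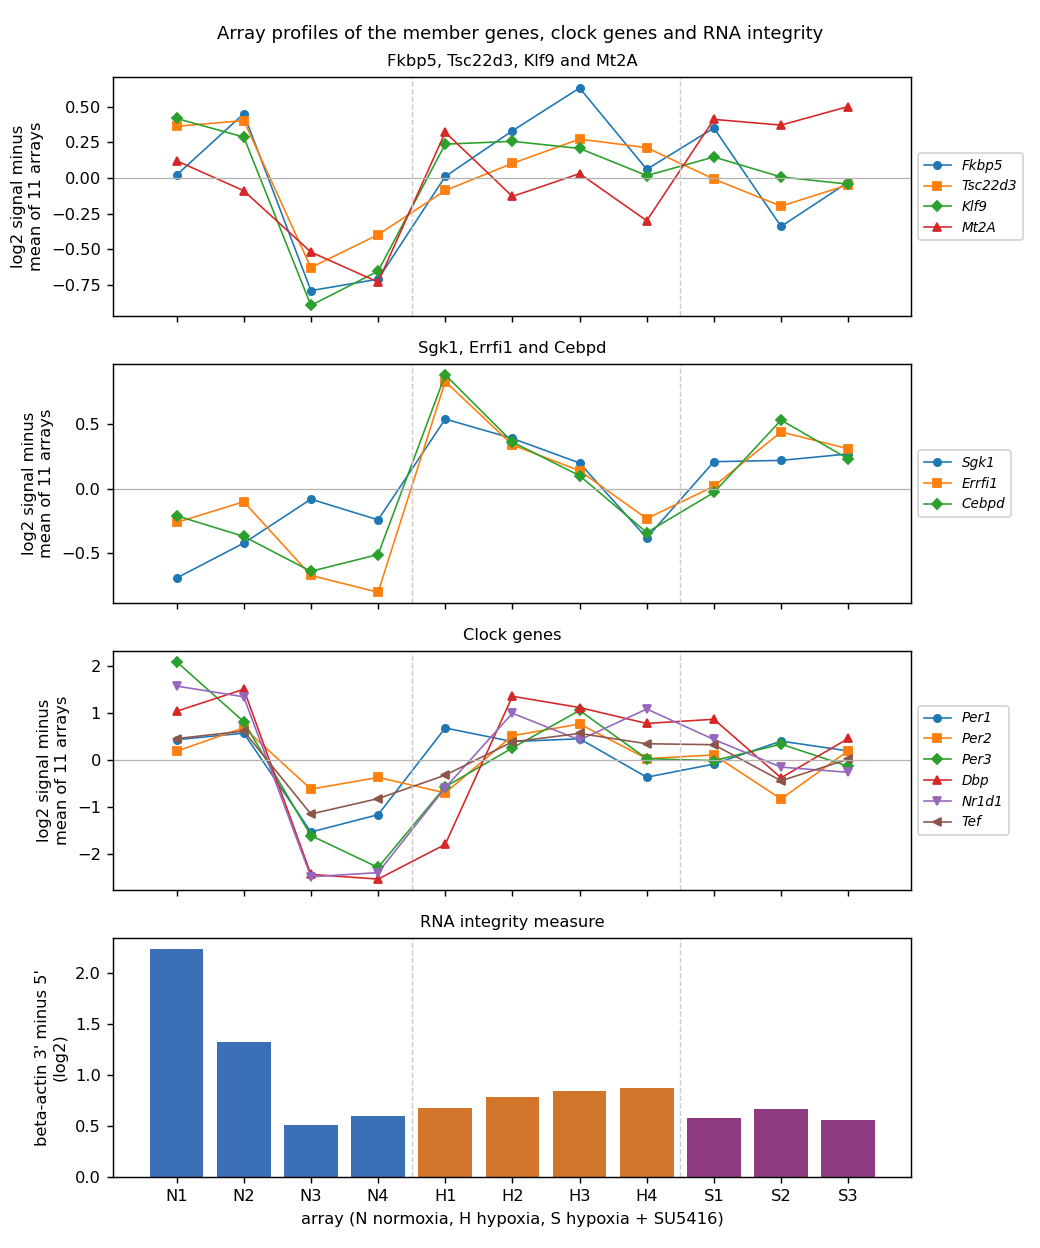
The upper 3 panels plot log2 signal minus the mean over the 11 arrays for Fkbp5, Tsc22d3, Klf9 and Mt2A, for Sgk1, Errfi1 and Cebpd, and for 6 clock genes, and the lowest panel plots the beta-actin 3′ minus 5′ gap; lines only join the points of a gene and imply no order. Normoxia arrays 3 and 4 are lowest for the first set and for Per1, Dbp, Nr1d1, Per3 and Tef, and normoxia arrays 1 and 2 have gaps of 2.24 and 1.33.

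The comparison with normoxia was therefore repeated with each normoxia pair. Without arrays 1 and 2, Klf9 passed the threshold: 0.95 above normoxia in hypoxia (SE 0.12, adjusted p = 0.0351, limma) and 0.88 in the averaged hypoxic groups (SE 0.11, adjusted p = 0.0384), with 0.81 and an adjusted p of 0.0832 for SU5416. The call rested on the brightest probe set: in hypoxia the others gave 0.19 (1387882_at, SE 0.24, adjusted p = 0.725) and -0.39 (1390076_at, SE 0.13, adjusted p = 0.206). By the brightest set all 7 hypoxic arrays then lay above the remaining normoxia arrays. Klf9 was 1 of 9 genes called in the first and the averaged comparison, beside 0.331% and 0.302% of all genes, and 0 of 9 were called with SU5416, beside 0.106%. In hypoxia Fkbp5 was 1.01 above (SE 0.23, adjusted p = 0.107), Errfi1 1.00 (0.134), Cebpd 0.82 (0.236), Tsc22d3 0.64 (0.0957), Mt2A 0.61 (0.149) and Sgk1 0.35 (0.481).

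At an unadjusted p under 0.05, this fit had 6 of 9 genes higher in hypoxia, beside 7.93% of all genes, 6 with SU5416, beside 7.10%, and 6 in the averaged groups, beside 7.85%. The hypoxic arrays all lay above normoxia for 6, 7 and 6 of the 9, beside 14.9%, 17.3% and 8.36% of all genes. The median over the 9 was 0.64 in hypoxia, 0.75 with SU5416 and 0.82 in the averaged groups. The 6 genes at that p are those that read higher on normoxia arrays 1 and 2 than on arrays 3 and 4. Leaving out arrays 1 and 2 raises their differences by construction, so these counts restate the split of normoxia and are no separate evidence. With these arrays left out, the beta-actin gap still lay lower in the 2 normoxia arrays (0.51 and 0.60) than in hypoxia (0.68 to 0.87).

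With arrays 3 and 4 left out instead, a fit chosen after the data had been seen, Klf9 was at -0.17 in hypoxia and -0.32 with SU5416, and Tsc22d3 at -0.26 and -0.47. Fkbp5 stood at 0.03 and -0.24, and Mt2A at -0.04 and 0.41. Sgk1 (0.74 and 0.79), Errfi1 (0.45 and 0.44) and Cebpd (0.54 and 0.53) stayed above normoxia in this fit too. It called 0 of 9 in hypoxia, with SU5416 and averaged, beside 0.0%, 0.197% and 0.0703% of all genes (limma). At an unadjusted p under 0.05, 1 of 9 was higher in each, beside 5.70%, 9.37% and 8.61% of all genes, and 0, 2 and 1 were lower, beside 6.21%, 9.58% and 8.57%. The hypoxic arrays all lay above normoxia for 1, 4 and 1 of the 9, beside 10.9%, 17.9% and 6.92% of all genes, and all below for 2, 3 and 2, beside 12.4%, 20.4% and 8.48%. By their brightest probe sets Tsc22d3 and Klf9 thus turned direction against normoxia with the pair of control arrays used, as did Fkbp5 with SU5416 and Mt2A in hypoxia (0.61 and -0.04), and Sgk1, Errfi1 and Cebpd were positive with either. The dimmer set of Fkbp5 was positive with either pair, at 0.25 and 0.72 in hypoxia (adjusted p = 0.757 and 0.39). Nor did the dimmer sets of Klf9 turn. Without arrays 1 and 2 and without arrays 3 and 4, 1387882_at gave 0.19 and 1.55 in hypoxia, and 0.69 and 2.05 with SU5416. By 1390076_at the values were -0.39 and -0.47 in hypoxia, and -0.27 and -0.35 with SU5416. None of these passed the adjusted threshold.

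**Figure D4:**
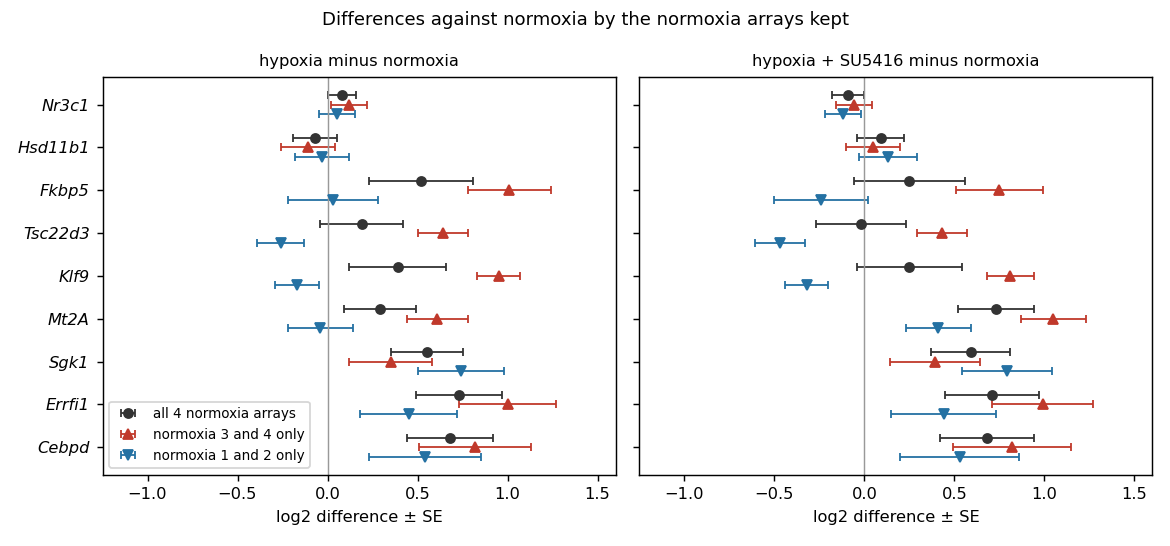
Each row is a gene, and markers give the log2 difference from normoxia (bars 1 SE) in hypoxia (left) and in hypoxia with SU5416 (right) with all 4 normoxia arrays, with arrays 3 and 4 only, or with arrays 1 and 2 only. For Klf9 in hypoxia the 3 values are 0.39, 0.95 and -0.17, and for Cebpd 0.68, 0.82 and 0.54.

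In hypoxia alone, Cebpd, Errfi1, Sgk1, Mt2A and Nr3c1 were highest on array 1 and lowest on array 4. Fkbp5 and Tsc22d3 were highest on array 3 and lowest on array 1, and Klf9 and Hsd11b1 were highest on array 2 and lowest on array 4. With SU5416 the first 5 genes did not share a highest array: it was array 2 for Cebpd, Errfi1 and Nr3c1, and array 3 for Sgk1 and Mt2A. Over all 11 arrays, as a description, the genes most like Fkbp5 among 12677 were C13h1orf116 (Pearson r = 0.97), Atp11a (0.97) and Pacsin2 (0.96). Tsc22d3 came at rank 85 (0.86) and Klf9 at rank 102 (0.85), whereas Errfi1 was at 0.50 and Sgk1 at 0.15. Those most like Sgk1 were Mmp17 (0.97), Gja1 (0.96) and Tpi1 (0.95), with Cebpd at rank 237 (0.77), Errfi1 at rank 437 (0.72) and Tsc22d3 at -0.29. The 11 points share 3 groups and the split of normoxia.

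Other known receptor targets were taken from a list of 47 genes, of which 43 were measured. In the averaged hypoxic groups 30 of 43 were higher than in normoxia, beside 48.0% of all genes, with a median of 0.08. At an unadjusted p under 0.05, 8 were higher and 2 lower, beside 6.22% and 6.98% of all genes, and 0 were called (limma). Without normoxia arrays 1 and 2 the median was 0.29, with 14 higher and 1 lower at that p, beside 7.85% and 8.07%. Without arrays 3 and 4 it was 0.0, with 22 of 43 above normoxia, 4 higher and 3 lower, beside 8.61% and 8.57%. The same shares of all genes apply to the list counts in the next paragraphs. Ddit4, an inhibitor of mTORC1 that hypoxia also induces, was 0.77 higher (SE 0.22, adjusted p = 0.204). It read 11.50, 11.48, 10.60 and 10.70 in normoxia, 11.91, 12.09, 11.66 and 11.49 in hypoxia, and 11.59 to 12.10 with SU5416. Glul, glutamine synthetase, was 0.44 higher (SE 0.12, adjusted p = 0.204), with normoxia at 11.35 to 11.87 and the hypoxic arrays at 11.79 to 12.20.

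Lcn2, lipocalin 2, an iron-siderophore binder released in inflammation, was 1.5 higher (SE 0.49, adjusted p = 0.25). It read 9.11, 10.70, 12.12 and 11.33 in normoxia, 11.26 to 12.30 in hypoxia and 13.26, 12.42 and 13.10 with SU5416, where every array exceeded the others. Il1r2, the decoy receptor of interleukin 1, was at 3.16 to 5.41 in normoxia, below background, and at 6.80 to 7.40 with SU5416, so its fitted difference of 2.68 there (adjusted p = 0.125) depends on unmeasured low values. Without normoxia arrays 1 and 2 Nfkbia, the inhibitor of NF-kappa B, was called higher in hypoxia (1.04, SE 0.13, adjusted p = 0.0351) and in the averaged groups (1.05, adjusted p = 0.0323), whereas without arrays 3 and 4 it was at -0.10 and -0.08. It read 12.22, 12.16, 10.98 and 11.13 in normoxia and 11.90 to 12.31 on the hypoxic arrays.

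A further list held 17 genes that glucocorticoids are known to repress, namely inflammatory genes and Pomc. Of these 10 were higher and 7 lower in the averaged hypoxic groups, with a median of 0.02 and 0 called (limma). At an unadjusted p under 0.05, 1 was higher and 1 lower. The median of the 17 turned with the normoxia pair used. Without arrays 1 and 2, 4 of 17 were above normoxia (median -0.16, 0 higher and 4 lower at that p), and without arrays 3 and 4, 11 of 17 (median 0.29, 4 higher and 0 lower). Ptgs2, the inducible cyclooxygenase, was 0.92 higher (SE 0.30, adjusted p = 0.244), and Il1b, interleukin 1 beta, was lower by 0.43 (difference -0.43, SE 0.17, adjusted p = 0.311). Tnf was at -0.65 (SE 0.39, adjusted p = 0.496), with a mean of 5.22 with SU5416, below background. By their means over all arrays 12 of the 17 lay above background, and Il11, Sele, Csf2, Mmp9 and Pomc did not. The counts, medians and means of this list include these dim genes. The mean of the 17 was 7.12 to 7.97 on the normoxia arrays, 7.24 to 7.49 in hypoxia and 7.75 to 7.83 with SU5416. Of the 13 measured clock genes, Bhlhe40, a clock repressor known to respond to hypoxia, was the 1 gene whose 7 hypoxic arrays all lay above normoxia, beside 1.15% of all genes. Its difference was 0.40 (SE 0.09, limma, adjusted p = 0.154). In all, 9 of 13 clock genes were above normoxia (median 0.36), 10 without normoxia arrays 1 and 2 (median 0.50) and 3 without arrays 3 and 4 (median -0.32).

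Immediate early genes, which handling stress can induce, had 5 of 15 measured members higher, a median of -0.12 and 0 called (limma; 0 at an unadjusted p under 0.05); the smallest p belonged to Fosb (-1.06, adjusted p = 0.414). Without normoxia arrays 1 and 2 this list had a median of -0.13, with 0 higher and 3 lower at that p, and without arrays 3 and 4 one of -0.18, with 1 higher and 2 lower. Among markers of other cells, all 15 T and NK cell genes were lower in the averaged hypoxic groups (median -0.33, 4 at an unadjusted p under 0.05, 0 called), with array means of 8.16 to 8.71 in normoxia, 7.92 to 8.23 in hypoxia and 7.86 to 8.36 with SU5416. Without normoxia arrays 1 and 2, 0 of the 15 were above normoxia (median -0.56), and without arrays 3 and 4, 6 were (median -0.06). The 6 measured genes of B cells and plasma cells were likewise all below normoxia (median -0.50; -0.66 without arrays 1 and 2, and -0.37 without arrays 3 and 4, where 1 of 6 was above), with array means of 8.34 to 8.59, 7.84 to 8.27 and 7.66 to 7.87. Of 5 measured adrenal steroid-synthesis genes, Cyp11b1 and Hsd3b1 lay below background. By their means over all arrays Star (5.75, close to background), Cyp21a1 (6.55) and Cyp11a1 (8.26) lay above it. In the averaged hypoxic groups these were at 1.24, -0.83 and -0.21 (limma, adjusted p = 0.284, 0.298 and 0.497). Star averaged 4.94 in normoxia, below background, so its difference depends on unmeasured low values. Array means of 7 cardiac genes ran from 6.64 to 10.92 in normoxia alone, 7.0 to 8.66 in hypoxia and 7.24 to 9.07 with SU5416; those of 7 adipocyte genes were 6.50 to 7.71, 6.21 to 6.96 and 6.51 to 7.47, and those of 5 neutrophil genes 7.05 to 7.81, 6.98 to 7.5 and 7.33 to 7.73. The part of these cell markers in the differences of the 9 genes was not tested.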

How the data were processed

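Total RNA of rat lung was measured on 11 Affymetrix arrays, 1 per sample. The authors deposited log2 signals, summarised with RMA per the submitters' processing notes; the version, genome build and annotation release are not given in the sources used here. The 2%-trimmed mean of the linear values is 500 on every array and the distributions differ between arrays, so the normalization behind the log2 values is uncertain. They were used as deposited.

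Of 31099 probe sets, 57 controls were set aside; 20826 name 1 gene, 436 several and 9780 none. Group means were fitted to the 11 arrays together with limma 3.58.1 under R 4.3.3 (lmFit, then eBayes), leaving 8 degrees of freedom for the spread. Tests were two-sided and adjusted by Benjamini-Hochberg over 31042 probe sets per contrast. The procedure was tested on simulated data. Genes were named from the platform's annotation, and promoter windows are RefSeq's (GRCr8).

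The members, lists and comparisons were chosen with earlier results of these data known. All members are named; of each list, up to 4 genes of smallest p in the averaged hypoxic groups against normoxia, plus any called gene, and for likeness the 3 genes of highest r. Alternatives were quantile and median scaling, a dim-signal filter, array weights, trend and robust eBayes, the beta-actin gap as covariate, only the groups compared, other probe sets, a replicate block and leaving arrays out.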

Additional observations from a re-analysis of the deposited data

Results flagged for a closer look

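In normoxia, Hsd11b1 read 11.63 on array 1, apart from the other 3 arrays at 11.77 to 11.79. It stood out because its gap to the nearest array was most of the group's range, in a group of 4. Chance alone marks about 1 such group in 20, and 18 groups were looked at. Array 1 is the array with the widest beta-actin gap (2.24); its part in this value was not tested.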

How the results depend on the processing

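Sgk1, Errfi1 and Cebpd kept a positive difference from normoxia under each alternative run (Sgk1 0.35 to 0.74 in hypoxia, Errfi1 0.45 to 1.00, Cebpd 0.47 to 0.88), and no member was called except Klf9 without normoxia arrays 1 and 2. That setting, which has fewer control arrays, gave 1 called gene in hypoxia and 1 in the averaged hypoxic groups, medians of 0.64, 0.75 and 0.82 (hypoxia, SU5416, averaged), 6, 7 and 6 genes with hypoxic arrays all above normoxia, and turned Tsc22d3 with SU5416 to 0.43 and, averaged, Nr3c1 to 0.03 and Hsd11b1 to -0.03. Without arrays 3 and 4 (added after seeing the data) the medians were 0.03 in hypoxia and 0.05 averaged, 3, 7 and 3 genes did not overlap (1, 4 and 1 above normoxia, 2, 3 and 2 below, beside the shares of all genes given in the report), and these reversed: in hypoxia Tsc22d3 -0.26, Klf9 -0.17, Mt2A -0.04; with SU5416 Fkbp5 -0.24, Klf9 -0.32; averaged Fkbp5 -0.11, Tsc22d3 -0.36, Klf9 -0.24. The beta-actin gap as covariate gave medians of 0.55 (SU5416) and 0.63 (averaged), Tsc22d3 0.30 with SU5416, Nr3c1 0.0 and Hsd11b1 -0.04 averaged, and between the hypoxic groups Sgk1 -0.02, Errfi1 0.04 and Cebpd 0.03. Median centring gave Hsd11b1 0.02 in hypoxia, Tsc22d3 0.03 with SU5416 and Nr3c1 0.07 averaged; array weights Tsc22d3 0.11 and Nr3c1 0.01; quantile scaling Cebpd 0.0 between the hypoxic groups and Hsd11b1 -0.03 averaged. The probe set of second highest mean gave Nr3c1 -0.22, 0.38, 0.60 (SU5416 against hypoxia) and 0.08 averaged, and between the hypoxic groups Fkbp5 0.07, Cebpd 0.19 and Klf9 0.49, with a median of 0.59 for SU5416 and 1 gene not overlapping in hypoxia, 1 between the hypoxic groups and 1 averaged. The mean of a gene's probe sets gave Nr3c1 -0.07, 0.14, 0.21 and 0.04, Cebpd 0.06 and Klf9 0.16. The cause of these changes was not tested. Leaving out 1 array moved the median to between 0.10 and 0.49 with SU5416 (the highest without normoxia array 2; 0.46 without array 1), and the genes not overlapping to between 0 and 3 in hypoxia and averaged (3 without hypoxia array 4, 1 without normoxia array 1 or 2) and to between 2 and 4 between the hypoxic groups (4 without SU5416 array 1). Over those fits Errfi1 ran from -0.18 to 0.17, Cebpd from -0.20 to 0.20 and Sgk1 from -0.14 to 0.16 between the hypoxic groups, Tsc22d3 from -0.21 to 0.14 with SU5416 and from -0.10 to 0.24 averaged, Hsd11b1 from -0.03 to 0.05 and Nr3c1 from -0.04 to 0.03 averaged. No pairing by replicate number was detected: same-numbered arrays correlated at -0.125 to 0.128 over 10 pairs after group means were removed, and differently numbered arrays at -0.128 to 0.139. With groups this small the check cannot exclude pairing. A replicate block gave 0 called members and a median of 0.15 with SU5416, 0.39 in hypoxia and 0.33 averaged, with Sgk1 -0.03 between the hypoxic groups and Hsd11b1 -0.0 averaged; over all probe sets it called 6 with SU5416 against 19 without it. Leaving out dim probe sets raised the calls over all probe sets from 19 to 214 with SU5416 and from 2 to 132 averaged, none of them a member; it adjusts over 15521 probe sets in place of 31042.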
